A study of Homo sapiens with 6 samples.

Results

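The ERBB receptors and their ligands comprised 10 genes: the receptors EGFR, ERBB2, ERBB3 and ERBB4 and the ligands AREG, EREG, HBEGF, TGFA, BTC and NRG1. They were chosen by name, as members of the family, and not by a measured value, though with earlier results of these data known. All 10 were present among the 26255 gene symbols of the expression table. The 5 remaining human ligand genes of the family, EGF, EPGN, NRG2, NRG3 and NRG4, are given beside them. Gene expression was measured by RNA-seq in MDA-MB-231, an established human triple-negative breast cancer cell line of mesenchymal, basal-like character. Both groups were lines that stably carried a lentiviral short hairpin RNA and had been selected with puromycin. The control group, shNT (3 libraries), carried a non-targeting hairpin. The other group, shGPR81 (3 libraries), carried a hairpin against GPR81, the lactate receptor encoded by HCAR1, which couples to an inhibitory G protein and lowers cyclic AMP. The labels do not say which hairpin the shGPR81 libraries carried, nor that the replicates were separate cultures, so the p-values measure the spread between these libraries, which may be technical.

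ERBB proteins are receptor tyrosine kinases that signal as dimers on the cell surface. EGFR binds EGF, TGF-alpha, amphiregulin and epigen. Betacellulin, HB-EGF and epiregulin bind EGFR and ERBB4, and neuregulins bind ERBB4 or both ERBB3 and ERBB4. ERBB2 has no known ligand and acts as a partner of the others, and ERBB3 has little kinase activity of its own and passes its signal on through partners, mainly to PI3-kinase. Most of the ligands are made as membrane-bound precursors that metalloproteases cut loose, so the transcript level of a ligand is not a measure of the released protein. MDA-MB-231 is an EGFR-expressing line without ERBB2 amplification.

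Values are FPKM, fragments per kilobase of transcript and mapped library size, which are scaled by length and so can be compared between genes. Tests are limma fits on log2(FPKM + 0.1) over the 14349 genes that reached 0.1 FPKM in at least 3 of the 6 libraries, and a positive log2 fold change is higher in shGPR81. "The test" means a Benjamini-Hochberg adjusted p under 0.05 over all tested genes, and "both thresholds" means that together with a fold change above 1.5. Fold changes on this scale are smaller than the true ones for genes of low level. Exact permutation tests of single genes were two-sided and cannot give a p below 0.1 with 3 against 3 libraries. Absolute depth is not known from FPKM. The steps between low values gave relative depths of 1, 1.02 and 1 in shNT and 1.07, 1.06 and 1.06 in shGPR81, so depth differed slightly by group. Groups of 3 limit the precision of every value. In these bulk samples, fewer cells of a type and less RNA per cell cannot be told apart.

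HCAR1, the gene targeted by the hairpin, was at 0.968, 1.02 and 1.36 FPKM in shNT and at 0.978, 0.891 and 0.396 FPKM in the libraries labelled shGPR81. The groups overlapped, because shGPR81 replicate 1 lay between shNT replicates 1 and 2. The steps of its values correspond to 37, 40 and 52 reads in shNT and 40, 36 and 16 reads in shGPR81, a ratio per unit depth of 0.677 (95% interval 0.513 to 0.892, counting error only). Its log2 fold change was -0.57 (SE 0.31) and did not pass the test (limma adjusted p = 0.38). Without shGPR81 replicate 3, the library with 16 reads, the log2 fold change was -0.22 (adjusted p = 0.677). The directions below are therefore directions between libraries as labelled. By RT-qPCR and western blotting, assays outside these libraries, the study reported lower GPR81 in its shGPR81 lines than in shNT.

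AREG and EREG lie next to each other on chromosome 4 together with EPGN and BTC, and amphiregulin and epiregulin transcripts are textbook targets of growth factor and cyclic AMP signalling. For these neighbours, and for TGFA on chromosome 2, the 250 bases before the transcription start (the first that RefSeq lists) are shown from RefSeq (GRCh38.p14), each 5′ to 3′ on the strand of the gene. Capitals mark the cyclic AMP response element (TGACGTCA), the TATA box (TATAAA) and the GC box (GGGCGG or its reverse complement CCGCCC). The windows are chr4:74444886-74445135 (plus strand) for AREG, chr4:74364895-74365144 (plus strand) for EREG and chr2:70553827-70554076 (minus strand) for TGFA.
AREG: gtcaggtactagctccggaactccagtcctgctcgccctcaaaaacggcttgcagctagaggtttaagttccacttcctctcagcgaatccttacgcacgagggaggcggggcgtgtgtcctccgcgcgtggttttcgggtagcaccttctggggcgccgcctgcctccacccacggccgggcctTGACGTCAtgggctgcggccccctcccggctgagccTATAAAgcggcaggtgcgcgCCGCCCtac
EREG: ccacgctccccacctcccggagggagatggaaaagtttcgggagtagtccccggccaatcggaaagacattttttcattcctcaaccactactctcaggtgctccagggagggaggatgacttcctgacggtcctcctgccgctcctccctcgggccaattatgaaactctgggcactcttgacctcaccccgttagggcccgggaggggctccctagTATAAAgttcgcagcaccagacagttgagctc
TGFA: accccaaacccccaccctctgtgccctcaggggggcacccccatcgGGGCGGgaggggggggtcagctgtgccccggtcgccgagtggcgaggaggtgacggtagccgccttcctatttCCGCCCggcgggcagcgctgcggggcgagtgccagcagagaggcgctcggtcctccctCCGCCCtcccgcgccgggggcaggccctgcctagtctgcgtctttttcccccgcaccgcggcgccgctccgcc
The AREG window holds a cyclic AMP response element that begins 65 bases before the start, a TATA box at 29 bases and a GC box at 9 bases. The EREG window holds a TATA box at 32 bases, and the TGFA window holds 3 GC boxes, at 204, 131 and 73 bases, and no TATA box. Searched on both strands, the cyclic AMP response element was found in 1.65% of the 35116 RefSeq windows of this length, the TATA box in 10.7%, the GC box in 42.6% and the AP-1 site TGANTCA in 6.57%. Of the 10 members, 8 had an entry, ERBB3 and NRG1 being the other members, and in the first window of these 8 the cyclic AMP response element was found in 1, the TATA box in 2, the GC box in 5 and the AP-1 site in 1. These matches describe the letters of the windows only.

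MDA-MB-231 expressed 3 of the 4 receptors and 5 of the 6 ligands above 1 FPKM in every library, and NRG1 had the highest level. By the mean of all 6 libraries, the order was NRG1 (59.0 FPKM), EGFR (36.7), HBEGF (35.3), EREG (25.7), TGFA (23.7), ERBB2 (11.6), ERBB3 (2.06), AREG (1.95) and BTC (0.156), with ERBB4 last (0.00789). The ranges over libraries overlapped between EGFR and HBEGF, between EREG and TGFA and between ERBB3 and AREG, so those neighbours are not ordered beyond their spread. BTC and ERBB4 overlapped as well, since each reached 0 in 1 or more libraries. The ranges of the other neighbouring members did not overlap. In shNT, NRG1 was at or above 90.0% of tested genes by level, EGFR 82.3%, ERBB2 57.2% and ERBB3 22.3%.

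**Figure D1:**
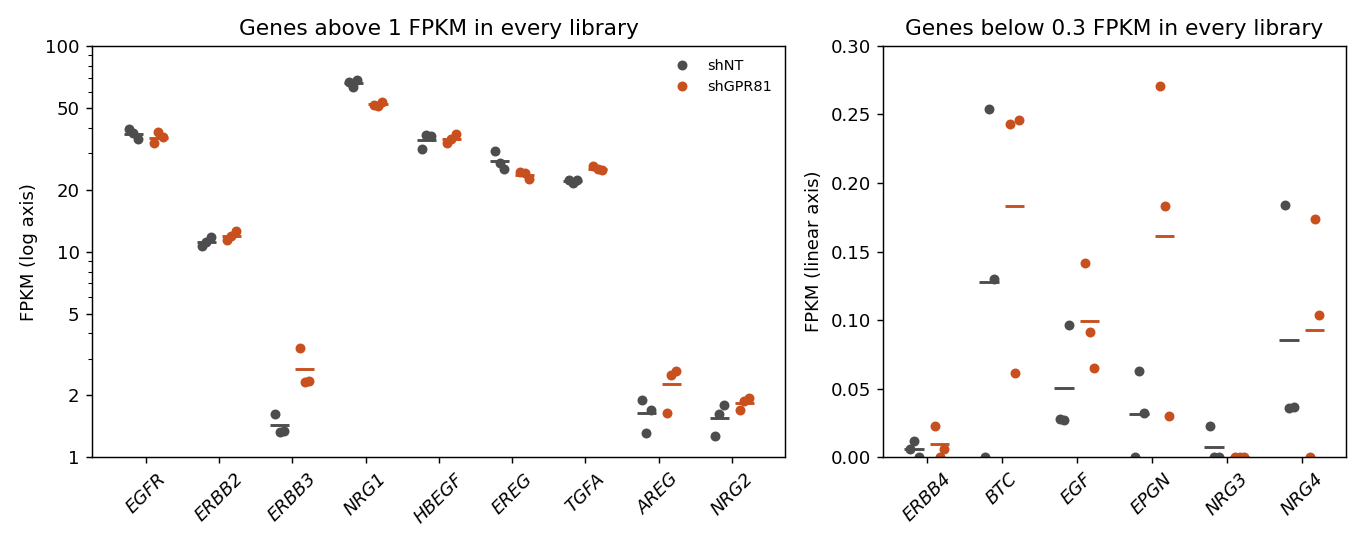
FPKM of the receptors and ligands in each of the 6 libraries, with points coloured by group and bars at the group means, on a log axis for genes above 1 FPKM (left) and a linear axis for genes below 0.3 FPKM (right). NRG1, EGFR and HBEGF lie above 30 FPKM in every library, whereas ERBB4 and NRG3 lie at or near 0.

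Between the groups, 1 receptor rose and 1 ligand fell by the test. ERBB3, the receptor of neuregulins, was 1.89-fold higher in shGPR81, while NRG1, the neuregulin that this line expresses most, was at 0.788 of its shNT level. No other member passed the test. Under the other settings tried, ERBB3 passed it in 7 of 14 and NRG1 in 11 of 14. Of the 10 members, 9 were tested, ERBB4 being below the filter. Both thresholds were passed by 1 member, ERBB3, which was higher, against 2.54% of all tested genes (0.955% higher and 1.59% lower). The test alone was passed by 2 of 9, against 5.13% of all tested genes (2.06% higher and 3.07% lower). The groups did not overlap for 4 of 9 members (ERBB3 and TGFA higher, NRG1 and EREG lower), or 44.4%, against 25.6% of all tested genes (12.9% higher and 12.7% lower), and 2 members were higher and 2 lower at an unadjusted p under 0.05. With 9 genes these counts are a description of the members. Their median log2 fold change was 0.10, with 6 of positive and 3 of negative sign, and the median of all tested genes was 0.0081.

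**Figure D2:**
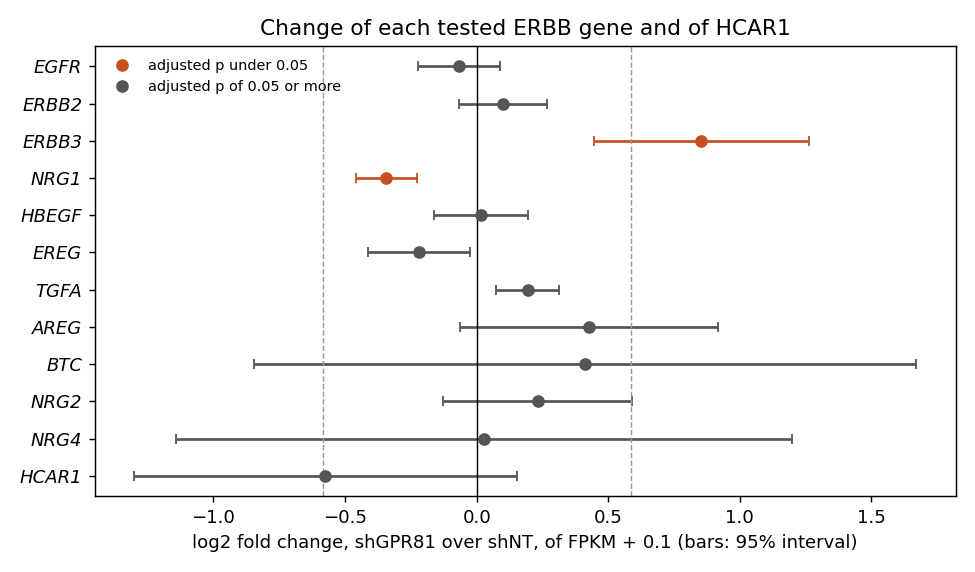
Log2 fold change (shGPR81 minus shNT) of each tested receptor and ligand gene and of HCAR1, with 95% confidence intervals from limma and dashed lines at a 1.5-fold change. ERBB3 (0.85) is the point beyond the upper line, NRG1 (-0.34) lies below 0 inside the lines, and BTC and NRG4 have the widest intervals.

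EGFR (7:55086710-55279321 on GRCh37, plus strand), the receptor of most of the ligands here, did not pass the test. It was at 39.4, 37.7 and 35.4 FPKM in shNT and 33.6, 38.0 and 35.9 FPKM in shGPR81. The lowest value was in shGPR81 and the highest in shNT, with overlap between the groups. The log2 fold change was -0.07 (95% confidence interval -0.22 to 0.09, limma adjusted p = 0.672).

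ERBB2 (17:37844167-37886679, plus strand), the ligandless partner, was at 10.6, 11.2 and 11.8 FPKM in shNT and 11.4, 11.9 and 12.6 FPKM in shGPR81. The groups overlapped by 1 library on each side. The difference, 0.10 on the log2 scale, had an interval of -0.07 to 0.27 (limma adjusted p = 0.519). For EGFR and ERBB2 the intervals therefore leave out changes as large as 1.5-fold (0.585 on the log2 scale). EGFR and ERBB2 overlap annotated genes of the opposite strand (EGFR-AS1; PGAP3 and MIEN1), and whether reads were counted by strand was not stated.

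ERBB3 (12:56470583-56497289, plus strand) was at 1.62, 1.33 and 1.34 FPKM in shNT and at 3.40, 2.32 and 2.36 FPKM in shGPR81. Every shGPR81 library was above every shNT library, and replicate 1 was the highest of its group on either side. The means were 1.43 ± 0.162 and 2.69 ± 0.611 FPKM (SD, n = 3). ERBB3 rose by a log2 fold change of 0.85 (SE 0.17, 95% confidence interval 0.45 to 1.26, limma adjusted p = 0.0352), a fold change of 1.36 to 2.40 at the ends of the interval. The exact permutation p was 0.1, the smallest the design allows. The spread within shGPR81 was large, with a coefficient of variation of 22.7% against 11.3% in shNT. The direction held whichever library was left out, with log2 fold changes of 0.68 to 0.95, but the call at both thresholds held in 1 of these 6 fits, the one without shNT replicate 1 (adjusted p = 0.0326). It was lost without shNT replicate 2 (0.133) or 3 (0.09) and without shGPR81 replicate 1 (0.0956), 2 (0.078) or 3 (0.073).

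The median change of the genes around ERBB3 was near 0. Over the 48 tested genes within 1 Mb of it the median was 0.0441 on the log2 scale, and 1 gene passed both thresholds. Luminal breast cells express ERBB3 at high levels. Of 8 luminal markers ESR1 and PGR, the oestrogen and progesterone receptors, were at 0 in all 6 libraries. In shNT, AGR2 was at 95.6 FPKM, XBP1 at 31.6 FPKM, FOXA1 at 1.58 FPKM and GATA3 at 1.21 FPKM. The summed luminal markers were 196 to 231 FPKM in shNT and 226 to 253 FPKM in shGPR81, with overlap. Within that list KRT19, a simple-epithelial keratin, rose from 78.1 to 112 FPKM (adjusted p = 0.0450), and TFF3, a secreted trefoil peptide, fell from 3.68 ± 0.532 to 0.591 ± 0.0915 FPKM (adjusted p = 0.000657), while the other 4 tested markers did not pass the test. KRT19 missed the test without shNT replicate 2 (0.13), without shGPR81 replicate 1 (0.145), 2 (0.105) or 3 (0.145), without a filter on low values (0.0834) and under median centring (0.0522), whereas TFF3 passed it in each of these fits. Of 6 epithelial junction markers CDH1 and GRHL2 were at 0 in every library, 3 were tested and 0 passed the test. In shNT, CLDN4 was at 33.4 FPKM, EPCAM at 6.16 FPKM, CLDN3 at 0.85 FPKM and ESRP1 at 0.0779 FPKM. The junction list summed to 35.4 to 44.1 FPKM in shNT and 38.3 to 41.7 FPKM in shGPR81. The part of luminal or junctional expression in the ERBB3 difference was not tested.

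The label of the line was also checked against other markers. Of 8 mesenchymal markers, VIM, which encodes vimentin, was the most abundant, at 3550 FPKM in shNT and 4130 FPKM in shGPR81, and the list summed to 4070 to 4890 and 4880 to 5450 FPKM. VIM did not pass the test (adjusted p = 0.267). MSN, which encodes moesin, was the member of that list that did (log2 fold change 0.30, adjusted p = 0.0378), and SPARC was below the filter. Of the 7 tested, 4 were of positive and 3 of negative sign. CD44 was lower without overlap, at 175 FPKM in shNT and 153 FPKM in shGPR81, and missed the test (limma adjusted p = 0.0566). MSN missed the test without shNT replicate 2 (0.142), without shGPR81 replicate 1 (0.0868), 2 (0.145) or 3 (0.138), without a filter on low values (0.0614) and under median centring (0.0518). Among 6 haematopoietic markers CD3E and HBB were at 0, and CD14 was at 3.38 ± 1.05 FPKM in shNT and 1.49 ± 0.312 FPKM in shGPR81 (adjusted p = 0.0562). The summed haematopoietic markers were 2.57 to 4.51 and 1.51 to 2.55 FPKM. DCN and LUM of the 4 fibroblast markers and ADIPOQ and LEP of the 4 adipocyte markers were at 0 in all libraries, and no gene of the haematopoietic, fibroblast and adipocyte lists passed the test.

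ERBB4, the second neuregulin receptor, was at 0.0062, 0.0121 and 0 FPKM in shNT and 0.0232, 0 and 0.00586 FPKM in shGPR81. It was below the filter in every library and was not tested. The 4 receptors summed to 50.1 ± 1.56 FPKM in shNT and 50.5 ± 1.95 FPKM in shGPR81 (SD, n = 3). Of that sum, the share of ERBB3 was 3.13%, 2.64% and 2.77% in shNT and 7.02%, 4.45% and 4.63% in shGPR81, without overlap. EGFR made up 74.8 ± 1.71% and 70.9 ± 1.74%, so it remained the most abundant receptor transcript in all 6 libraries.

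NRG1 (8:31496738-32713184, plus strand) encodes neuregulin 1, a ligand of ERBB3 and ERBB4. It was at 67.0, 63.0 and 68.0 FPKM in shNT and 51.9, 50.9 and 53.1 FPKM in shGPR81. All shGPR81 libraries were below all shNT libraries, and the gap between the groups was wider than the range within either. The means were 66.0 ± 2.64 and 52.0 ± 1.07 FPKM (SD, n = 3), and NRG1 fell by 0.34 on the log2 scale (SE 0.05, limma adjusted p = 0.00954). The ratio of 0.788 had a 95% confidence interval of 0.727 to 0.855 and so did not reach a 1.5-fold change. The test was passed under 11 of 14 other settings, and it was missed without shGPR81 replicate 1 (adjusted p = 0.0595) or 2 (0.0633) and when tested against a 1.5-fold change. Within 1 Mb of NRG1 the median of 10 tested genes was -0.037, and 0 passed both thresholds. Of the stretches of 75 bases in the NRG1 transcripts 8.52% also occur in other annotated genes, mainly RP11-1002K11.1, so a small part of its reads may be shared.

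The opposite directions of ERBB3 and NRG1 are seen in the same libraries. The shGPR81 libraries had 0.788 of the NRG1 level and 1.89-fold the ERBB3 level. The ligand remained far above the receptor in every library, the lowest NRG1 value being 50.9 FPKM and the highest ERBB3 value 3.40 FPKM. No test relates the pair, since both were compared over the same 6 libraries. The neuregulin NRG2 had the sign of ERBB3, at 1.56 FPKM in shNT and 1.83 FPKM in shGPR81, and did not pass the test (limma adjusted p = 0.485).

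TGFA (2:70674416-70781325, minus strand) encodes TGF-alpha, a ligand of EGFR. It was at 22.4, 21.5 and 22.4 FPKM in shNT and 26.0, 25.1 and 24.8 FPKM in shGPR81. The groups did not overlap, and the coefficient of variation was 2.23% in shNT and 2.38% in shGPR81. The ratio was 1.14, and the log2 fold change of 0.19 (SE 0.05, 95% confidence interval 0.07 to 0.31) missed the test (limma adjusted p = 0.0822). Apart from the test against a 1.5-fold change, its adjusted p ranged from 0.0611 to 0.275 over the settings tried.

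EREG (4:75230862-75254466, plus strand), which encodes epiregulin, was at 30.9, 26.9 and 25.2 FPKM in shNT and 24.3, 24.2 and 22.5 FPKM in shGPR81. The groups did not overlap, although shNT replicate 3 lay within 1 FPKM of the highest shGPR81 library. The log2 fold change was -0.22 (SE 0.08, interval -0.41 to -0.02, limma adjusted p = 0.205). HBEGF (5:139712428-139726188, minus strand), which encodes HB-EGF, was at 31.5, 37.1 and 36.6 FPKM in shNT and 33.7, 35.3 and 37.3 FPKM in shGPR81. These ranges overlapped, and the difference of 0.02 on the log2 scale had an interval of -0.16 to 0.20 (adjusted p = 0.94).

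AREG (4:75310853-75320722, plus strand), which encodes amphiregulin, was at 1.90, 1.32 and 1.69 FPKM in shNT and 1.65, 2.50 and 2.63 FPKM in shGPR81. Replicate 1 of shGPR81 lay inside the range of shNT, and the other shGPR81 libraries lay above it. The smallest whole numbers that fit the values were 28, 20 and 25 reads in shNT and 26, 39 and 41 reads in shGPR81. Their ratio per unit depth was 1.38 (95% interval 1.01 to 1.88, counting error only). The log2 fold change of 0.43 (SE 0.21, interval -0.06 to 0.92) did not pass the test (limma adjusted p = 0.328). The GRCh37 annotation holds a near-identical copy, AREGB (4:75480629-75490486, plus strand), which shares 1491 of the 1639 stretches of 75 bases in AREG (91%) and has no row of its own among the symbols used here. How shared reads were counted is not stated. The level of AREG, the reads behind it and their interval are therefore uncertain, since a step need not be 1 read if shared reads were divided. The low value of AREG cannot be set against the other ligands with the same firmness. The neighbours EREG and AREG, whose windows are shown above, had fold changes of opposite sign, neither of which passed the test. Over the 8 tested genes within 1 Mb of AREG the median log2 fold change was 0.1797, with 5 of positive and 3 of negative sign. Over the 8 within 1 Mb of EREG it was 0.3177, with 6 of positive and 2 of negative sign. In both regions 0 passed both thresholds.

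BTC (4:75669969-75719733, minus strand), which encodes betacellulin, was barely detected, at 0, 0.254 and 0.130 FPKM in shNT and 0.243, 0.0615 and 0.246 FPKM in shGPR81. These values correspond to 6 reads in all of shNT and 9 in all of shGPR81, and a difference was not detectable at this depth (ratio 1.42, 95% interval 0.453 to 4.86, counting error only). Of the ligands outside the 10, NRG2, a further neuregulin, was the most abundant, at 1.27, 1.62 and 1.79 FPKM in shNT and 1.69, 1.87 and 1.94 FPKM in shGPR81 (log2 fold change 0.23, SE 0.15, limma adjusted p = 0.485). Its groups overlapped. NRG4 was at 0 to 0.184 FPKM, with 5, 1 and 1 reads in shNT and 0, 5 and 3 reads in shGPR81 (adjusted p = 0.984). EGF was at 0.0269 to 0.142 FPKM, EPGN at 0 to 0.271 FPKM and NRG3 at 0 to 0.0231 FPKM, all below the filter.

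The composition of the ligand transcripts differed between the groups. The 11 ligand genes summed to 155, 152 and 156 FPKM in shNT and 140, 140 and 143 FPKM in shGPR81, without overlap. NRG1 made up 42.7 ± 1.13% of the sum in shNT and 36.9 ± 0.511% in shGPR81, and TGFA 14.3 ± 0.131% and 17.9 ± 0.604% (SD, n = 3). HBEGF went from 22.7% to 25.1%, EREG from 17.9% to 16.8% and AREG from 1.06% to 1.6%. Shares of a sum move together by construction, so the larger share of HBEGF stands beside a level that did not pass the test.

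**Figure D3:**
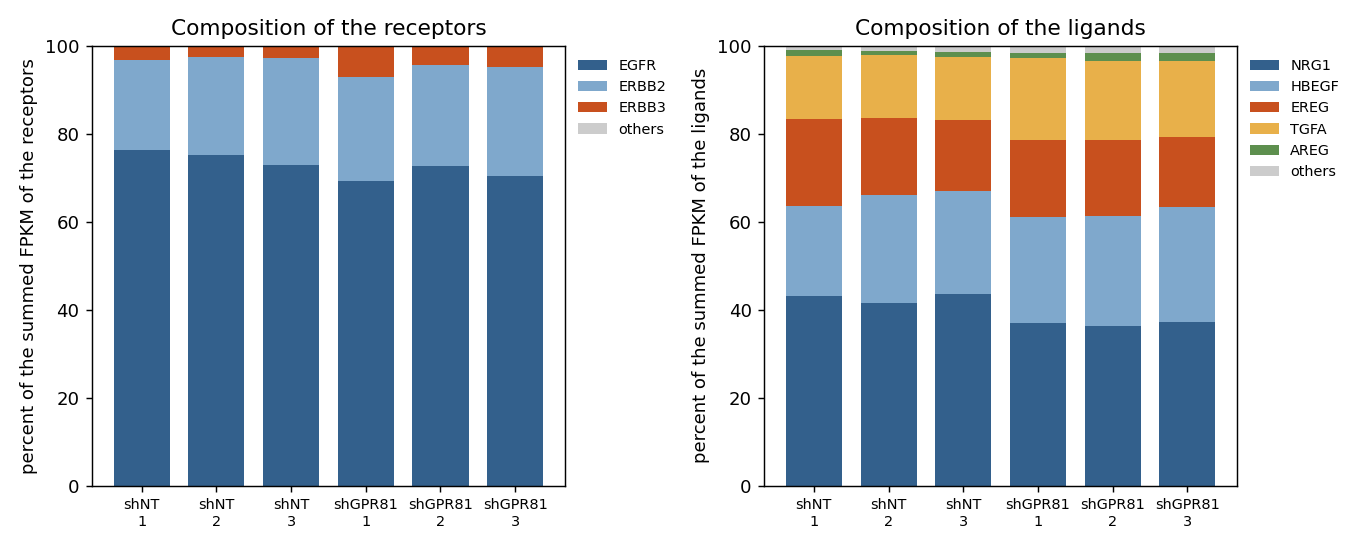
Stacked bars, 1 per library, of the percent of the summed FPKM of the 4 receptors (left) and of the 11 ligands (right) taken by each gene. EGFR takes 69.4% to 76.4% of the receptor sum in every library, and the NRG1 share of the ligand sum lies between 41.5% and 43.6% in shNT and between 36.3% and 37.2% in shGPR81.

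ERBB3 was the member that passed both thresholds, and the tested genes of at least 1 FPKM whose pattern was most like it over the 6 libraries were OARD1, VPS52 and PRDM8 (Pearson r = 0.9917, 0.9915 and 0.9870 on log2 values). OARD1 was at 58.4, 53.9 and 53.8 FPKM in shNT and 69.9, 63.2 and 64.6 FPKM in shGPR81. VPS52 went with a log2 fold change of 0.09 and PRDM8 with one of 0.29. These genes share with ERBB3 the 6 libraries, the group difference and a high shGPR81 replicate 1, and they lie on chromosomes 6, 6 and 4 rather than on chromosome 12. The likeness is a description of the closest among all tested genes.

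The genes that act around the receptors were described through 5 lists, of 126 genes, 122 of them tested. By the test alone 4 were lower and 14 higher, or 14.8%, against 5.13% of all tested genes, and 1 passed both thresholds (EPHA4). Their median log2 fold change was 0.0357. Members of these lists were compiled by hand with earlier results known. The percentages are not a test, and the background was not matched to the lists for expression level.

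Among 14 genes that release or control the release of ligands, 13 were tested, 3 rose (ADAM15, BACE1 and RHBDF1) and 0 fell. The 3 were 23.1% of those tested, against 5.13% of all tested genes (2.06% higher and 3.07% lower). RHBDF1 encodes iRhom1, an inactive rhomboid that carries the ligand sheddase ADAM17 towards the cell surface, and it went from 6.43 ± 0.796 to 9.37 ± 0.567 FPKM (SD, n = 3; log2 fold change 0.54, SE 0.10, limma adjusted p = 0.0276). It missed the test with a replicate block (0.0634), without shNT replicate 3 (0.0607) and without shGPR81 replicate 1 (0.125), 2 (0.0709) or 3 (0.107). ADAM15, a metalloprotease, went from 34.5 ± 3.39 to 46.2 ± 2.21 FPKM (0.42, SE 0.08, adjusted p = 0.0270). It missed the test without shNT replicate 2 (0.0752) and without shGPR81 replicate 1 (0.103), 2 (0.0858) or 3 (0.105). BACE1, a beta-secretase, passed in 1 of the 6 leave-one-out fits (adjusted p 0.0285 to 0.123) and missed the test with a replicate block (0.0507). The list's median was 0.16, with 7 genes of positive and 6 of negative sign.

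Among 42 adaptors and kinases that carry the signal from the receptors, 41 were tested, 3 rose (SHC3, GAB2 and VAV2) and 2 fell (SRC and PLCG1). Together they were 12.2% of those tested, against 5.13% of all tested genes. GAB2, a docking protein for PI3-kinase and SHP2, went from 4.07 ± 0.256 to 5.71 ± 0.332 FPKM (0.48, SE 0.09, adjusted p = 0.0252). It missed the test without shNT replicate 2 (0.109) and without shGPR81 replicate 1 (0.107), 2 (0.0716) or 3 (0.106). SHC3, an adaptor of the SHC family, went from 3.31 ± 0.191 to 4.59 ± 0.176 FPKM (0.46, adjusted p = 0.0285), and it passed in 1 of the 6 leave-one-out fits, the one without shNT replicate 1, with adjusted p of 0.0381 to 0.126 over the 6. The tyrosine kinase SRC went from 20.9 ± 1.13 to 16.0 ± 0.760 FPKM (-0.38, adjusted p = 0.0183), and it missed the test without shNT replicate 2 (0.0942) or 3 (0.0559) and without shGPR81 replicate 1 (0.0956) or 2 (0.0926). VAV2 and PLCG1 each passed in 1 of these 6 fits, the one without shNT replicate 1, and missed the test with a replicate block (0.0759 and 0.0708). The list's median was 0.0144, near that of all genes. SRC, PLCG1 and the phosphatase gene PTPN1 lie on chromosome 20, where 353 of 388 tested genes were of negative sign with a median of -0.39. They are the 3 chromosome 20 genes among the 122, and 3 of the 4 that fell. No member of the receptor and ligand family lies on chromosome 20. Of the 3 adaptors that rose, SHC3 and VAV2 lie on chromosome 9 and GAB2 on chromosome 11. On chromosome 9, 381 of 558 tested genes were of positive sign with a median of 0.0847, the highest of any chromosome.

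Of 22 genes of receptor uptake and recycling 21 were tested, 0 rose and 1 fell, and the list's median was 0.0233. That share, 4.76%, was near the 5.13% of all tested genes. The one that fell was RAB11FIP1, an effector of the recycling GTPase RAB11, from 6.14 ± 0.321 to 4.48 ± 0.412 FPKM (-0.45, adjusted p = 0.0396). It passed in 1 of the 6 leave-one-out fits, the one without shNT replicate 1 (0.0389 to 0.16 over the 6), and missed the test with a replicate block (0.0649) and without a filter on low values (0.0625). SH3KBP1, which encodes the CBL-interacting adaptor CIN85, was at 50.7 and 56.9 FPKM without overlap and did not pass the test (adjusted p = 0.117).

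Of 28 feedback inhibitors 27 were tested, 3 rose (SPRY2, SPRY4 and DUSP5) and 1 fell (PTPN1), with a median of 0.0627. Together they were 14.8% of those tested, against 5.13% of all tested genes. SPRY4, a Sprouty inhibitor of receptor tyrosine kinase signalling, rose from 34.9 ± 1.02 to 47.7 ± 0.724 FPKM (0.45, SE 0.05, adjusted p = 0.00266). DUSP5, a nuclear phosphatase of ERK, rose from 119 ± 4.97 to 157 ± 2.20 FPKM (0.40, adjusted p = 0.00449). SPRY4, DUSP5 and PTPN1 passed the test in all 6 leave-one-out fits, and SPRY2 in 2 of them. Of the 25 genes listed as transcriptional output of ERK signalling, all tested, 7 rose (among them FOSL1, JUN, EGR1, SPRY2, SPRY4 and EPHA4) and 0 fell, or 28.0%, against 2.06% of all tested genes that were higher. The median was 0.16, with 21 of positive and 4 of negative sign. That background was not matched for expression level. Over the 5 lists together, the 14 higher genes became 3 to 16 when 1 library was left out. The lists of feedback inhibitors and ERK output share PHLDA1, SPRY2, SPRY4, DUSP4 and DUSP6 and are not independent.

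EPHA4, an ephrin receptor, was the gene of these lists at both thresholds, with a rise from 2.35 ± 0.133 to 4.59 ± 0.115 FPKM (0.94, SE 0.09, adjusted p = 0.00213). It held this call in all 6 leave-one-out fits. EGR1, an immediate early transcription factor, rose from 6.66 ± 0.554 to 9.73 ± 0.245 FPKM (0.54, adjusted p = 0.0103), and it missed the test without shNT replicate 2 (0.0586) and without shGPR81 replicate 1 (0.0636) or 2 (0.0581). FOSL1 and JUN each passed in 1 of the 6 leave-one-out fits, the one without shNT replicate 1.

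**Figure D4:**
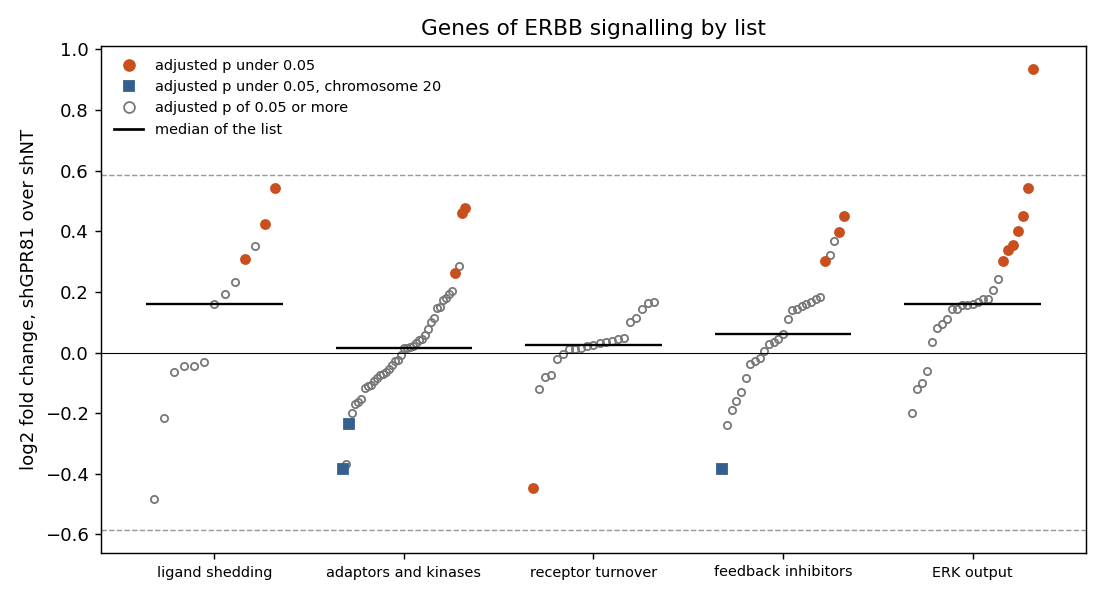
Log2 fold change (shGPR81 minus shNT) of every tested gene in the 5 pathway lists, 1 point per gene, with a bar at each list's median, filled symbols for genes at an adjusted p under 0.05 (squares on chromosome 20) and dashed lines at a 1.5-fold change. The ERK output list has 7 filled symbols above 0 and 0 below, and 2 filled squares of the adaptors and kinases lie below 0.

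Across the settings tried, the direction of ERBB3, NRG1, TGFA, EREG, EGFR, ERBB2 and AREG did not change, and that of HBEGF and BTC reversed when single libraries were left out. The estimate of NRG1 stayed between -0.38 and -0.32 and that of ERBB3 between 0.59 and 0.95.

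**Figure D5:**
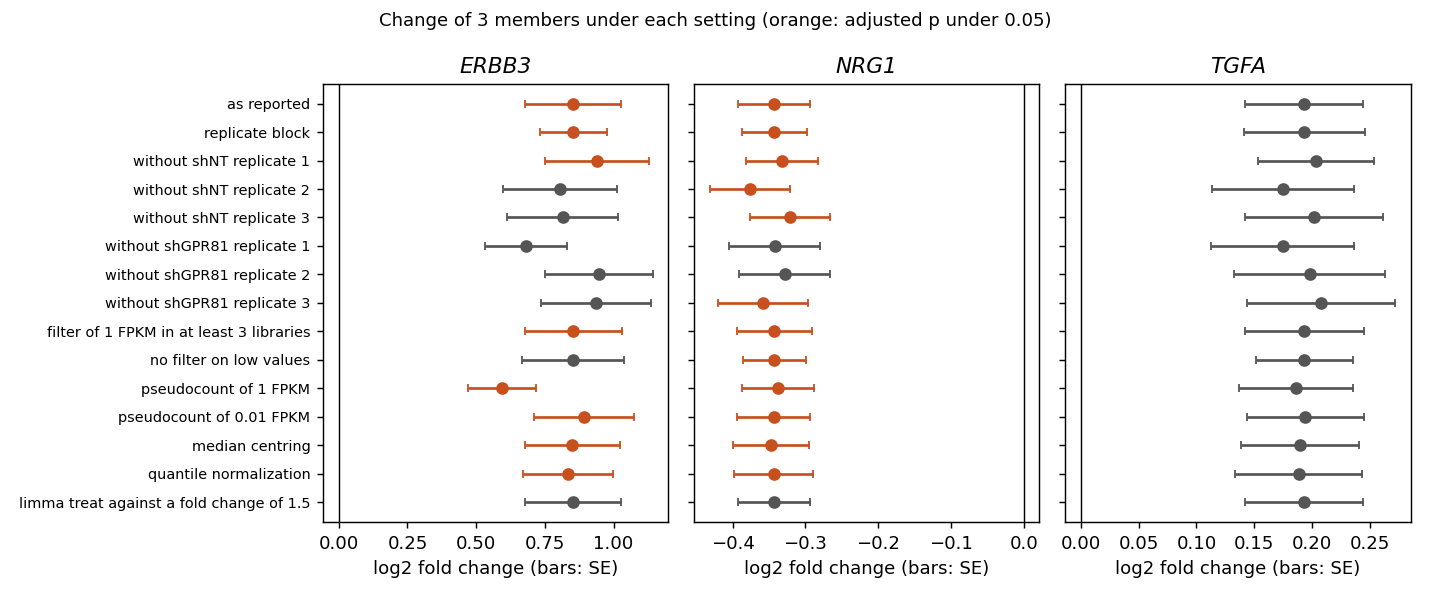
Log2 fold change (shGPR81 minus shNT) of ERBB3, NRG1 and TGFA as reported and under each alternative setting, with SE bars and colour for an adjusted p under 0.05. Points of NRG1 lie between -0.38 and -0.32, those of ERBB3 between 0.59 and 0.95 and those of TGFA between 0.17 and 0.21.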

How the data were processed

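RNA-seq libraries of MDA-MB-231 cells (3 shNT and 3 shGPR81) were prepared with a stranded mRNA kit and read as single ends of 75 bases. The deposited values are FPKM per gene symbol and library; the submitters' processing notes name TopHat2 2.0.13, Bowtie2 2.2.3, SAMtools 0.1.19 and Cuffnorm 2.2.1. The study's methods name the human build hg19 and the labels mm10, and the symbols are human; the annotation is not given in the sources used here. Gene coordinates are those of GENCODE release 44 on GRCh37.

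Since the table holds FPKM and no counts, log2(FPKM + 0.1) was modelled in limma 3.58.1 (R 4.3.3), by lmFit followed by eBayes with a trend and without a block. Genes reaching 0.1 FPKM in 3 or more of the 6 libraries were kept, with Benjamini-Hochberg adjustment over all 14349. The fit was checked on simulated data. FPKM sums could not serve as depths. Reads behind low values were the smallest whole numbers that fit the steps between values (tolerance 5e-05 of the number, up to 600 reads). This was possible for 5784 of 15931 genes, and intervals cover counting error only.

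The members, lists and alternatives were chosen with earlier results of these data known. The text names all members and other ligands, HCAR1, every list gene past both thresholds, the 2 genes of largest change per list among those of at least 1 FPKM whose groups did not overlap, and the 3 tested genes most correlated with ERBB3; other genes that passed the test, marker genes at 0 and SRC were named after their values were seen. ERBIN was matched as ERBB2IP. Not every gene of the lists is reported here by name. Alternatives were other pseudocounts, filters and scalings, a replicate block, a test against a 1.5-fold change and leaving out each library.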

Additional observations from a re-analysis of the deposited data

How the results depend on the processing

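With the test against a 1.5-fold change (limma treat), 46 tested genes were lower and 9 higher in place of 228 and 137, and 0 members and 0 genes of the pathway lists were called in either direction by any rule. With a pseudocount of 1 FPKM the counts over all genes were 142 lower and 75 higher, and leaving out 1 library at a time gave 121 to 256 lower and 65 to 152 higher. The 1 member higher at both thresholds (ERBB3) became 0 without a filter on low values, by both rules, and 0 to 1 when 1 library was left out; members at the adjusted p alone were 0 to 1 lower and 0 to 1 higher in those fits. Of the genes of the pathway lists, those higher at both thresholds numbered 1 to 2 without 1 library, and those at the adjusted p alone 1 to 6 lower (4 as reported) and 3 to 16 higher (14 as reported). Without 1 library the list medians were 0.0562 to 0.2017 for ligand shedding, -0.0315 to 0.0362 for adaptors and kinases, -0.0073 to 0.0481 for receptor turnover, 0.0475 to 0.1137 for feedback inhibitors and 0.127 to 0.1906 for ERK output, and the adaptors and kinases were at -0.0096 under the filter of 1 FPKM. HBEGF ran from -0.0580 (shNT replicate 1 left out) to 0.0593 and was -0.0220 with shGPR81 replicate 3 left out. BTC ran from -0.0922 (shNT replicate 1 left out) to 0.8191. NRG4 ran from -0.2842 to 0.4421 as single libraries were left out, with values of -0.1501 and -0.1456 for shNT replicates 2 and 3 and -0.0727 for shGPR81 replicate 3, and it was -0.3277 with a pseudocount of 0.01. Over the named genes and settings, 368 values kept their direction and their side of the adjusted p threshold, 109 lost the adjusted p call, 2 gained it and 8 reversed direction. By both thresholds, 8 lost the call and 5 gained it. Where the setting does not itself remove genes or libraries, the cause was not tested.

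The values do not settle whether replicate numbers pair the libraries. Deviations of same-numbered libraries from their group means correlated at 0.12, 0.0223 and 0.00577 across genes. The libraries of replicate 1 each correlated best with their own number. For replicate 2 that held for the shNT library alone, and for replicate 3 in neither group. With the replicate number as a block, 197 genes were lower and 115 higher, ERBB3 stayed past both thresholds (adjusted p = 0.0245) and NRG1 past the test (0.0183), RHBDF1, BACE1, VAV2, PLCG1 and RAB11FIP1 missed it, and the pathway lists held 2 lower and 12 higher genes at the adjusted p alone. Absolute depth is unknown, and genes below 0.3 FPKM rest on a few reads.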
